A study of Mus musculus with 4 samples.

Results

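The transcripts of 8 integrin subunits and of 2 of their matrix ligands were followed in basal epidermal cells of mouse embryos that lacked or retained Srf, the gene of serum response factor. The genes were taken as a named list by the gene symbol of the array's platform: the α subunits Itga2, Itga3, Itga5, Itga9 and Itgav, the β subunits Itgb1, Itgb5 and Itgb6, and the ligands Npnt (nephronectin) and Fn1 (fibronectin). They are 10 of the 18193 genes named on the array and hold 35 of its 45037 probe sets, which are groups of short probes read as 1 value. Itga6 and Itgb4 are not part of the list.

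The cKO group held 2 samples, titled Ko_1210 and KO_1261, with both Srf alleles floxed (SRF fl/fl), ROSA26 YFP fl/fl and K14-Cre. The het group held 2 samples, titled het_1210 and het_1261, which the submitters' design text gives as SRF fl/+ with the same ROSA26 YFP fl/fl and K14-Cre and calls WT. The controls thus carried Cre and 1 floxed allele themselves. K14-Cre acts in keratin 14 expressing keratinocytes, and YFP marks cells in which Cre has acted. Cells were taken at E16.5 and sorted on YFP and on α6 integrin, a surface protein that can pair with β1. The samples Ko_1210 and het_1210 share a number in their titles and are called the first pair, and KO_1261 and het_1261 the second. The labels do not say what these numbers mark, nor whether a sample is 1 embryo or a pool, so p-values measure only the spread between these samples, which may be technical.

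Integrins are α and β subunit pairs that span the cell membrane and tie the extracellular matrix to the actin cytoskeleton. In the epidermis they are concentrated in basal keratinocytes, where they hold the cells to the basement membrane. β1 is the shared partner of α2, which binds collagen, of α3, which binds laminin-332, of α5, the main fibronectin receptor subunit, and of α9, which binds tenascin-C and the EDA segment of fibronectin. αv pairs with β5, which binds vitronectin, and with β6, which binds and activates latent TGF-β. Nephronectin is a basement membrane protein best known as the ligand of α8β1 integrin, and in mouse skin it is deposited by epithelial cells of the hair follicle. SRF acts with MRTF coactivators, which respond to the state of actin, and binds a DNA element called the CArG box.

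To show where that element lies near these genes, the 250 bases before each start that RefSeq places in build GRCm38.p6 were searched on both strands for the CArG box and for the GC box (GGGCGG), an element of many promoters without a TATA box. Of the 10 genes 9 were matched, with 12 starts, and Fn1 was not. A CArG box was present at 1 of the 12 starts, the second start of Itgb6, against 1.47% of the 32851 starts of all genes. A GC box was present at 6 of the 12 starts, in 5 genes, against 32.7% of all starts. The first start of Npnt is shown because Npnt was the one gene of the list whose difference passed a test, and the second start of Itgb6 because it holds the CArG box. Both lie on the minus strand. Npnt occupies chr3:132950292-132950541 and Itgb6 chr2:60673694-60673943, and the sequences read 5′ to 3′ towards the start, with GC boxes in capitals in the first and the CArG box in capitals in the second.
Npnt, first start: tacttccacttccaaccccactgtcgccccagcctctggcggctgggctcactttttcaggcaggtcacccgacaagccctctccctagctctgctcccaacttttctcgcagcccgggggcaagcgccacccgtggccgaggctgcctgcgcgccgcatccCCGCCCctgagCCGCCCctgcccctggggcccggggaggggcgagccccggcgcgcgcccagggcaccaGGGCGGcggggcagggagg
Itgb6, second start: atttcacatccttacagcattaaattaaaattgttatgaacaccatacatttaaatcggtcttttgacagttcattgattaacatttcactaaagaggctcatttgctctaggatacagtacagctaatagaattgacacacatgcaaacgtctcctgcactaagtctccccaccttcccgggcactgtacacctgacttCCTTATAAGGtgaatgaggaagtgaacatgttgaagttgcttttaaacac
The 3 GC boxes of the Npnt window begin 88, 77 and 19 bases before the start, and the CArG box of the Itgb6 window begins 50 bases before its start. The Npnt window was 74% G or C and the Itgb6 window 38%. A match describes these letters only, and other regions of the genes were not searched.

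Values are MAS5 signals on a linear scale, which the authors scaled to a common mean on each array. Differences are cKO minus het of log2(signal + 1). A gene was represented by its brightest probe set over the 4 arrays. The test took in the 22518 probe sets whose mean log2 signal lay above the median of all probe sets, equal to a signal of 65.9, and these stand for 11055 genes. The comparison used limma, two-sided, with Benjamini-Hochberg adjustment over all tested probe sets and a threshold of 0.05. The pairs stood apart: 24 of 24 poly-A spike-in control probe sets, which read RNA added before labelling, were brighter in the first pair than in the second in both groups, with median ratios of 2.80 in cKO and 2.45 in het. A second fit therefore had the pair (the title number) as a block. It relied on a variance shared across probe sets, with 34.4 prior against 1 residual degree of freedom. Its standard errors may thus understate how far the difference between cKO and het varied from pair to pair. The spike-in probe sets also differed between the groups. Their median cKO to het ratio was 0.916 in the first pair, with 2 of 24 above 1, and 0.863 in the second, with 1 of 24 above 1. A block for the pair does not remove this difference, and its part in the results was not tested. In what follows each difference has the standard error of the fit with the block, and the differences within the first and then the second pair, with 1 array per group, stand beside it.

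The brighter Srf probe set had signals of 47.9 and 80.4 in the cKO samples, against 834 and 1108 in the het samples. The sources used here do not say which part of Srf is floxed. All 8 basal keratinocyte markers were tested, and Krt5, a basal keratin, had signals of 50933 and 35314 in cKO, against 57958 and 36834 in het. The arrays also differed in transcripts of the sex chromosomes. The Y-linked gene Eif2s3y had 1386 in Ko_1210 and 3.01 in KO_1261, against 1485 in het_1210 and 833.9 in het_1261. Xist, transcribed from the inactive X chromosome, had 115 in Ko_1210 and 22802 in KO_1261, against 62.6 in het_1210 and 14338 in het_1261, at its brightest probe set. Xist was thus high in both arrays of the second pair, and het_1261 had both transcripts. The part of these differences in the results was not tested.

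Without a block, limma called 0 of 11055 genes (0%), with 66 at an unadjusted p under 0.05, and 0 of the 7 tested members, with 0 at that level. With the block it called 97 genes (0.877%), of which 28 were higher in cKO (0.253%) and 69 lower (0.624%). Of the 7 tested members 1 was called, Npnt, and it was higher. The other 3 members, Itga2, Itga9 and Itgb6, had no probe set above the filter. Over the 10 genes the median difference was 0.25, with 6 above 0 and 4 below. Over the 7 tested members it was 0.25, with 4 above 0 and 3 below, and over the 11055 tested genes -0.02, with 46.2% above 0. The groups did not overlap at 5 of the 10 genes, 3 higher and 2 lower in cKO. Of these 5 genes Itga9 and Itgb6 were not tested. Among the 7 tested members Npnt and Itga3 had both cKO arrays above both het arrays, as did 8.17% of all tested genes. Fn1 had both below, as did 10.9%. The sign was shared by both pairs at 6 of the 10 genes. Among the 7 tested members it was shared at 4, against 56.0% of all tested genes.

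**Figure D1:**
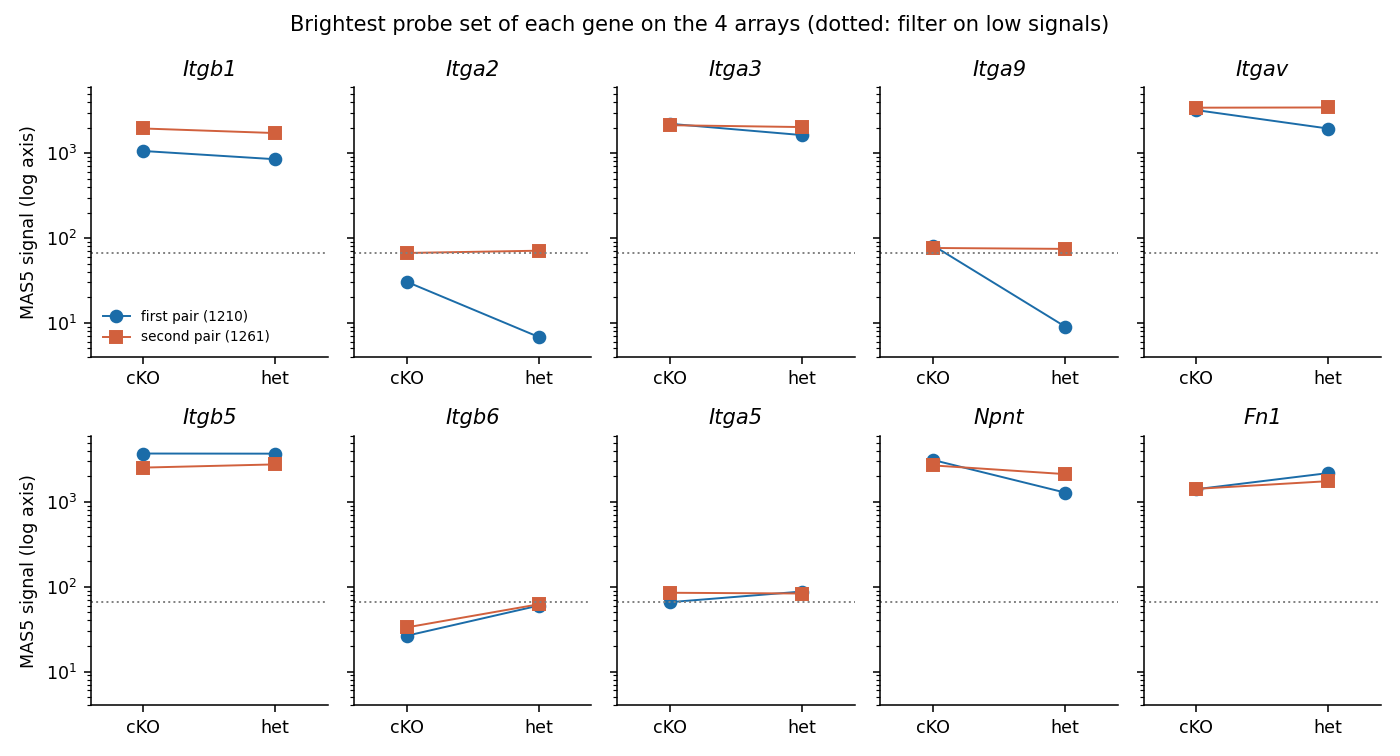
MAS5 signal (log axis) of the brightest probe set of each of the 10 genes in the cKO and het arrays, with a line joining the arrays of a pair (circles first, squares second) and a dotted line at the filter of 65.9. Npnt, Itga3 and Itga9 had both cKO arrays above both het arrays, and Fn1 and Itgb6 had both below.

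Npnt, the nephronectin gene, was higher in both cKO samples than in both het samples. Its brightest probe set, 1452106_at, had signals of 3116 in Ko_1210 and 2690.1 in KO_1261, against 1287 in het_1210 and 2125 in het_1261. The means were 2903 ± 301 in cKO and 1706 ± 592 in het (SD, n = 2), a ratio of 1.70. On the log2 scale the difference was 0.81 ± 0.18, with 1.28 within the first pair and 0.34 within the second. Npnt rose by limma with the block (adjusted p = 0.0121). By limma without the block it did not pass (unadjusted p = 0.0512, adjusted p = 0.999955). The low array was het_1210: without it the difference was 0.45, and without het_1261 it was 1.17, both by limma without a block and neither passing. With the block the call ended with a robust prior (adjusted p = 0.111), without the variance trend (0.736), with a pseudocount of 32 (0.129) and with no filter on low signals (0.273).

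The 5 probe sets of Npnt differed in size. The second brightest, 1452107_s_at, had 2162 and 2126 in cKO, against 1367 and 2001 in het, a difference of 0.37 ± 0.17 (0.66 and 0.09). Probe set 1426560_a_at had 277 and 181 in cKO, against 157 and 169.9 in het, a difference of 0.45 ± 0.29. In both of these the cKO arrays lay above the het arrays, by a narrow margin within the second pair, and neither passed with the block (adjusted p = 0.474 and 0.697). Probe set 1426561_a_at had 133 and 125 in cKO, against 138 and 127 in het, a difference of -0.04 ± 0.35. The dimmest, 1421429_a_at, had 63.0 and 88.1 in cKO, against 16.1 and 80.5 in het, and was not tested. In 5 of 5 probe sets the difference was larger in size within the first pair, as at 67.3% of all tested genes.

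**Figure D2:**
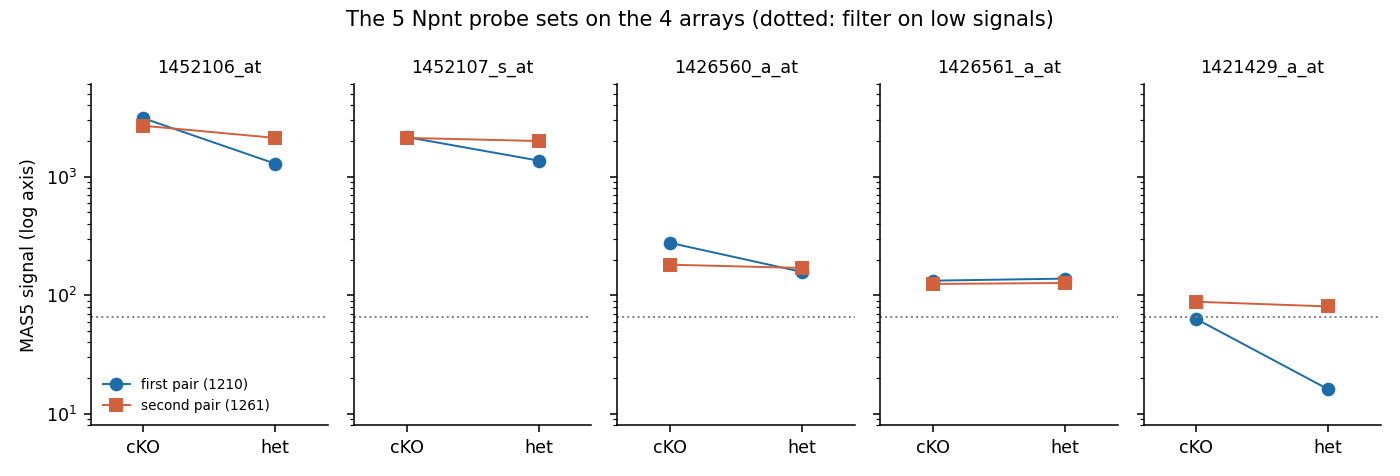
MAS5 signal (log axis) of the 5 Npnt probe sets in the cKO and het arrays, with lines joining arrays of a pair (circles first, squares second) and a dotted line at the filter of 65.9. In 3 of the 5 both cKO arrays lay above both het arrays, and het_1210 was the lowest array in 4 of the 5.

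The receptor subunit α8 was fixed as part of a list of other integrins. Itga8 had signals of 79.2 and 71.1 in cKO, against 130.1 and 134 in het. Both cKO arrays lay below both het arrays, with a difference of -0.81 ± 0.41 (-0.71 and -0.91), and it did not pass with the block (adjusted p = 0.557). Egfl6, a close relative of nephronectin that was singled out after its values were seen, had 123 and 169.7 in cKO, against 176 and 264 in het, a difference of -0.57 ± 0.30 that did not pass either (adjusted p = 0.581). Over the 4 arrays, the log2 pattern most like that of Npnt among the other 11054 tested genes, by Euclidean distance after each gene was centred on its mean, was that of Cog5 (distance 0.066), followed by Ppara (0.19) and Tmprss6 (0.21). None of these 3 genes passed with the block, with adjusted p from 0.477 for Cog5 to 0.724 for Tmprss6.

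Fn1, which encodes fibronectin, was lower in both cKO samples than in both het samples. Its brightest probe set had signals of 1410.4 and 1424 in cKO, against 2186 and 1755 in het. The 2 cKO arrays were close together, at 1417 ± 9.56, and the het arrays averaged 1970.5 ± 305 (SD, n = 2), a cKO to het ratio of 0.719. The log2 difference was -0.47 ± 0.17, with -0.63 within the first pair and -0.30 within the second. It did not pass with the block (unadjusted p = 0.00841, adjusted p = 0.268) or without it (unadjusted p = 0.103, adjusted p = 0.999955). The second probe set, 1437218_at, had 34.2 and 152 in cKO, against 54.0 and 249 in het, so that the pairs differed by more than the groups did: the difference between groups was -0.68 ± 0.43, and that of the second pair minus the first was 2.12 in cKO and 2.19 in het.

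Fn1 is also a product of dermal fibroblasts, and the fixed list of their markers was lower in the same samples. The cKO values were below the het values on average at 13 of its 15 tested genes, and the median difference was -0.61 (-0.96 and -0.22). Dcn (0.06) and Pdgfra (0.75, with 0.64 and 0.87 within the pairs) went the other way. Col3a1, Twist2 and Vim passed with the block. By limma with the block and a robust prior none of them passed (adjusted p = 0.106, 0.142 and 0.301). The summed signal of the list was 57421 and 58449 in cKO, against 71426 and 64186 in het. The part of these cells in the Fn1 values was not tested. In a sorted population measured in bulk, fewer cells of a type and less RNA per cell cannot be told apart.

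Itgb1, the β subunit shared by α2, α3, α5 and α9, had signals of 1064 in Ko_1210 and 1960.1 in KO_1261, against 851 in het_1210 and 1731 in het_1261. Each cKO array was above the het array of its own pair, and the groups overlapped because both arrays of the second pair were high. The difference was 0.25 ± 0.17 (0.32 and 0.18). It did not pass with the block (adjusted p = 0.722) or without it (unadjusted p = 0.623, adjusted p = 0.999955). The log2 difference of the second pair minus the first was 0.88 in cKO and 1.02 in het. Itgb1 also showed the same order of arrays in 2 further tested probe sets, 1452545_a_at at 636 and 1159 in cKO, against 512 and 1100 in het, and 1427771_x_at at 93.2 and 163 in cKO, against 47.7 and 159.7 in het. The other 3 probe sets did not exceed 33.4 on any array. The patterns nearest to that of Itgb1 over the 4 arrays were those of Gk5 (distance 0.035), Kdm5c (0.051) and Lrp12 (0.062).

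Itga3, the α subunit that with β1 binds laminin-332, had signals of 2227 and 2143 in cKO, against 1639 and 2037 in het. The groups did not overlap, although KO_1261 exceeded het_1261 by a ratio of only 1.05. The difference was 0.26 ± 0.16 (0.44 and 0.07; adjusted p = 0.684 with the block). The other 2 probe sets of Itga3 also had positive differences, 0.31 ± 0.23 and 0.41 ± 0.31, with overlapping groups, and 0 of the 3 passed.

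Itga5, the fibronectin receptor subunit, was near the filter on low signals. Its brightest probe set had 65.7 and 84.8 in cKO, against 87.7 and 83.1 in het, and the groups overlapped. The difference was -0.19 ± 0.47 (-0.41 and 0.03; adjusted p = 0.950 with the block). Of the other 3 probe sets, none tested, 1423268_at was higher in both cKO arrays, at 43.4 and 41.6, against 27.0 and 33.5 in het. Probe set 1458996_at was low in Ko_1210 alone, at 6.67, against 66.2 in het_1210. Probe set 1457561_at was low in both arrays of the first pair, at 2.62 in Ko_1210 and 5.76 in het_1210. In the second pair it had 63.1 in KO_1261 and 60.9 in het_1261.

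Itga2, the collagen receptor subunit, is read by 1 probe set, which was not tested. It had 30.6 in Ko_1210 and 66.8 in KO_1261, against 6.84 in het_1210 and 71.0 in het_1261, so the arrays of the first pair were the low ones in both groups. Itga9 had 81.7 and 76.5 in cKO, against 9.06 and 74.6 in het, at its brightest probe set, where het_1210 alone was low. Its other 2 probe sets did not exceed 15.7 on any array and had differences of the opposite sign. MAS5 signals of this size are noisy on a log scale, so the log2 differences of 0.96 for Itga2 and 1.54 for Itga9 are imprecise, and neither was tested above the filter.

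Itgav, the αv subunit, had signals of 3227 and 3447 in cKO, against 1956 and 3468 in het. Both cKO arrays were close to het_1261, and het_1210 stood below the other three. The difference was 0.36 ± 0.16, made of 0.72 within the first pair and -0.01 within the second, and did not pass with the block (unadjusted p = 0.0362, adjusted p = 0.487). Without het_1210 it was -0.06. Of the 4 untested probe sets of Itgav, 1432296_a_at had 11.6 and 4.15 in cKO, against 96.8 and 56.6 in het, the widest separation among the 35 probe sets in log2 terms, at -3.22. It went against the bright probe set, and which transcript it reads was not examined.

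Itgb5, the vitronectin receptor partner of αv, had signals of 3714 and 2536 in cKO, against 3702 and 2766 in het, at its brightest probe set. The groups overlapped and both arrays of the first pair were high. The difference was -0.06 ± 0.15 (0.005 and -0.12; adjusted p = 0.951 with the block). All 4 probe sets of Itgb5 were tested, and their differences lay between -0.26 and -0.06, with 0 passing. For Itgb5 the difference of the second pair minus the first was -0.55 in cKO and -0.42 in het, of opposite sign to that of Itgb1.

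Itgb6, the epithelial partner of αv that activates latent TGF-β, was below the filter on all 4 arrays and was not tested. Its brighter probe set had 26.4 and 33.1 in cKO, against 59.9 and 62.0 in het. The samples within each group were close, at 29.7 ± 4.75 in cKO and 60.9 ± 1.51 in het (SD, n = 2), and the groups did not overlap, with a difference of -1.02 (-1.15 and -0.89). The dimmer probe set had 12.0 and 1.78 in cKO, against 2.41 and 18.7 in het, with opposite signs within the pairs. Of the 6 tested genes of the latent TGF-β complex 5 were lower in cKO on average and 0 passed with the block. The median was -0.36, with -0.64 within the first pair and 0.04 within the second, and 1 of the 6 had the same sign in both pairs. That gene, Tgfb3, had 189 and 110.1 in cKO, against 413 and 173 in het (-0.88 ± 0.29; adjusted p = 0.182).

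**Figure D3:**
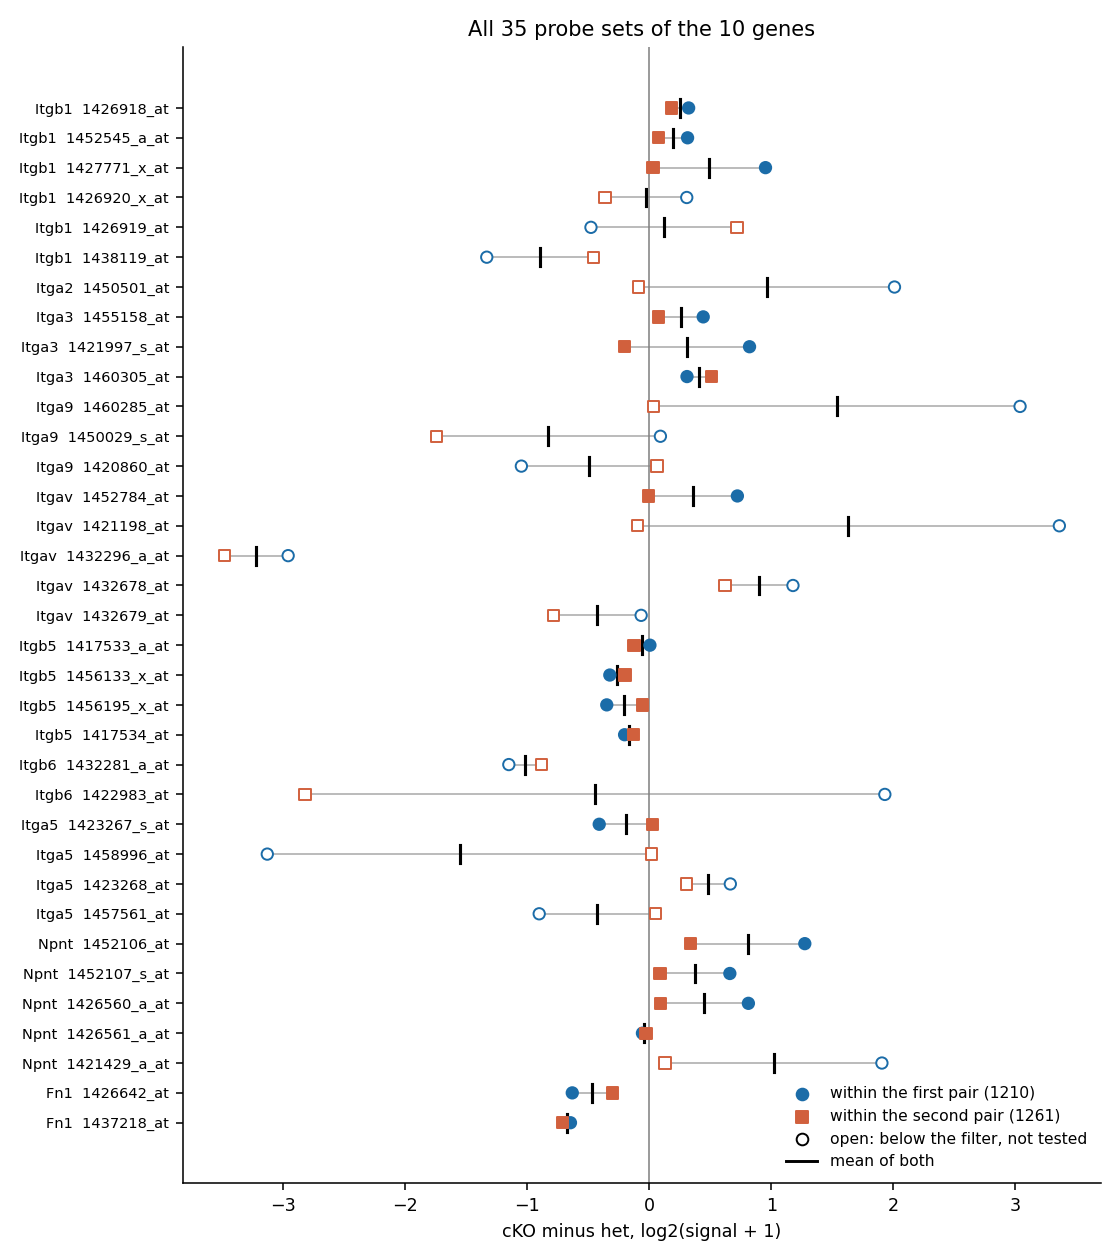
Difference of cKO minus het in log2(signal + 1) for the 35 probe sets of the 10 genes (vertical), within the first pair (circles) and the second (squares), with black ticks at the mean. The 18 tested probe sets (filled) lie between -0.68 and 0.81 on average, and the 17 untested ones (open) between -3.22 and 1.63.

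Across the 35 probe sets, 17 differences were above 0 and 18 below. Of the 18 tested, 1 passed with the block, where 0.862% of all tested probe sets did. The sign was shared by both pairs in 14 of the 18 tested probe sets and in 8 of the 17 untested ones. The 18 are repeated readings of 7 genes, and by the brightest probe set 4 of these 7 shared the sign, against 56.0% of all tested genes. Of the 18 tested, 15 had the larger difference within the first pair, where 67.3% of all tested genes did. These shares over genes stand in for shares over probe sets, which were not computed.

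The exact permutation test of 2 against 2 samples cannot give a two-sided p below 0.333, which is what each gene with separate groups had, so no single gene could pass by it.

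In the fixed lists of the same pathway 0 genes passed. Of 20 tested genes of integrin activation and adhesion adaptors, which join integrin tails to actin, 11 were higher and 9 lower, with a median of 0.01, and 0 passed with the block. Vcl, the adaptor vinculin, had 1833 and 1849 in cKO, against 2076 and 3558 in het (-0.56 ± 0.17; -0.18 and -0.94; adjusted p = 0.134). Sharpin, an inhibitor of integrin activation, had 593 and 438 in cKO, against 949 and 569 in het (-0.53 ± 0.20; adjusted p = 0.321). Talin 1 (Tln1) and integrin-linked kinase (Ilk), taken after their values were seen as central members, differed by 0.09 ± 0.18 and -0.10 ± 0.17.

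Of 14 other integrin subunits on the array 4 were tested, of which 3 were lower and 1 higher, with a median of -0.46, and 0 passed with the block. Beside Itga8 the rule named Itga4, a subunit of leukocytes and mesenchymal cells, at 58.8 and 68.1 in cKO, against 107.5 and 88.3 in het (-0.62 ± 0.47). Of 16 tested matrix ligands and basement membrane partners 5 were higher and 11 lower, with a median of -0.09, and 0 passed with the block. Col1a1, a collagen chain that is also a fibroblast marker, had 775 and 1022 in cKO, against 1864 and 1139 in het (-0.71 ± 0.20; adjusted p = 0.0870). Nid2, which encodes the basement membrane linker nidogen 2, had 75.2 and 60.2 in cKO, against 130 and 100.1 in het (-0.76 ± 0.44). Fras1 and Frem2, whose proteins form a basement membrane complex with which nephronectin interacts in mouse, were singled out afterwards. They differed by 0.40 ± 0.16 and 0.30 ± 0.15, with both cKO arrays above the het array of the same pair. Neither passed with the block (adjusted p = 0.337 and 0.556).

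**Figure D4:**
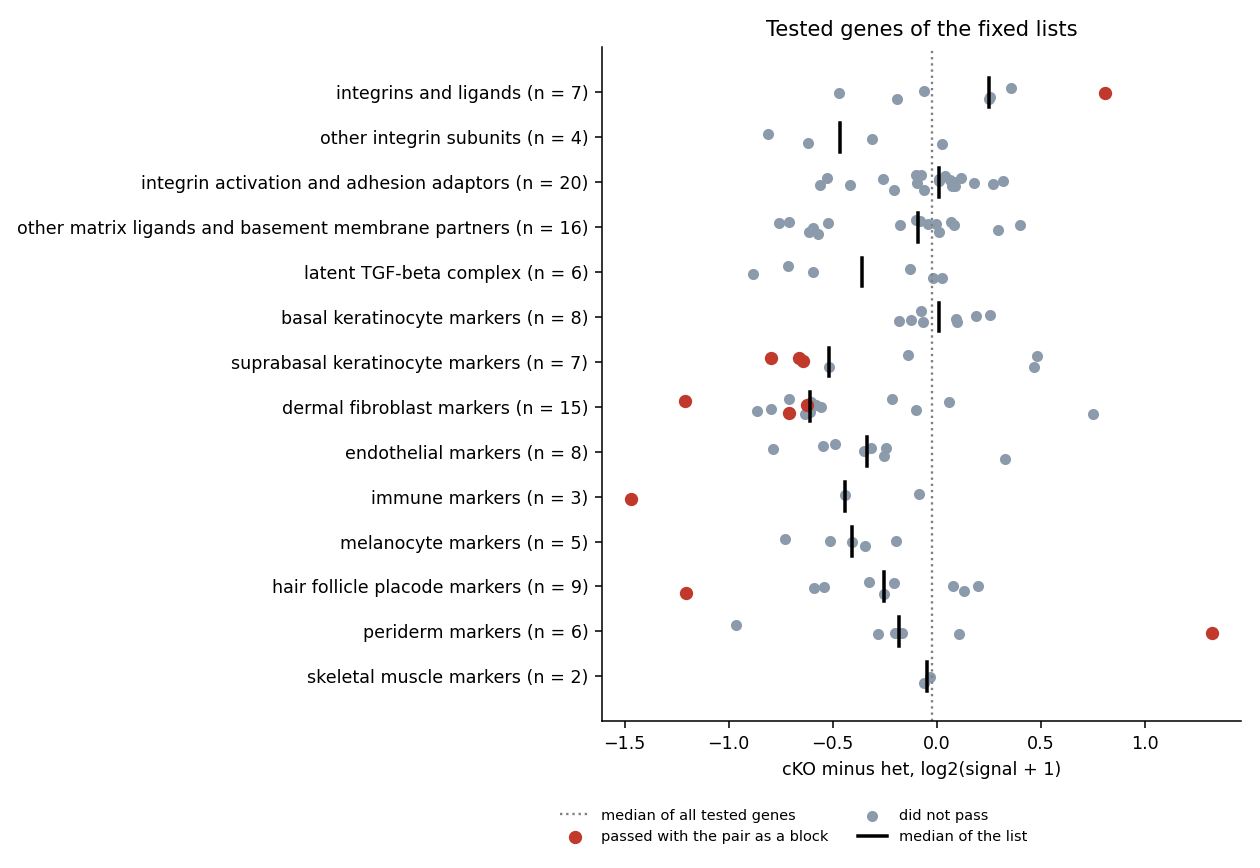
Difference of cKO minus het in log2(signal + 1) of the tested genes (points) of each fixed list (vertical), with red points for genes that passed limma with the pair as a block, black ticks at list medians and a dotted line at the median of all tested genes, -0.02. Npnt is the 1 red point among the integrins and ligands, and 0 genes passed in the lists of other integrins, adaptors, matrix partners, the latent TGF-β complex and basal keratinocyte markers.

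Marker lists of other cells the sort could hold had medians from -0.61 to -0.04, against -0.02 over all tested genes. The 8 basal keratinocyte markers had a median of 0.01 (0.02 and -0.05 within the pairs), with 0 passing with the block. At 5 of 7 tested suprabasal markers cKO was lower (median -0.52), and Krt1, Krt10 and Sbsn passed with the block. Lor and Ivl were higher on average, with opposite signs within the pairs. Lor had 3418 and 5705 in cKO, against 1063 and 9592 in het (1.68 and -0.75). Ivl had 330 and 237 in cKO, against 97.5 and 409 in het (1.75 and -0.78). The summed signal of the suprabasal list was 91936 and 73999 in cKO, against 145923 and 93553 in het. The 8 tested endothelial markers had 7 lower (median -0.33, with -0.77 and 0.08 within the pairs). Of the 2 genes the rule named, Cdh5 had 51.9 and 73.2 in cKO, against 89.2 and 91.8 in het. Ramp2, the 1 marker that was higher, had 176 and 168 in cKO, against 146 and 128 in het (0.27 and 0.39). Of the 9 immune markers 6 were not tested, and the 3 tested were lower (-0.44, with Laptm5 passing). Of these 3 only Laptm5, 1 gene, had the same sign in both pairs. By limma with the block and a robust prior it did not pass (adjusted p = 0.0682). The 5 tested melanocyte markers had 5 lower (-0.41, with -0.90 and -0.045 within the pairs). The 9 hair follicle placode markers had 6 lower (-0.25, with Lhx2 passing). Of the 6 tested periderm markers 4 were lower (-0.18, with Krt6a passing as higher). Of the skeletal muscle markers 2 were tested (-0.04, with -0.72 and 0.64 within the pairs). Krt6a had 196 and 886 in cKO, against 193 and 142 in het, with differences of 0.02 and 2.63 within the pairs. Its call thus rested on KO_1261, and by limma with the block and a robust prior it did not pass (adjusted p = 0.874). The summed signals were 909.8 and 1080.0 in cKO, against 1427 and 1078 in het, for the endothelial list, and 446 and 716 in cKO, against 929 and 945 in het, for the immune list. For the melanocyte list they were 797 and 749 in cKO, against 1461 and 770.0 in het, and for the placode list 21151 and 19267 in cKO, against 18980 and 21364 in het. The lists held both dim and clearly detected markers. In the melanocyte list Dct had 218 and 243 in cKO, against 532 and 275 in het, while Mlana did not exceed 19.8 on any array. Egfl7 of the endothelial list, chosen after its values were seen, had 281 and 309 in cKO, against 479.6 and 282 in het. The differences of Egfl7 within the pairs had opposite signs, -0.77 and 0.13. Pecam1 of the same list did not exceed 44.0. Laptm5 of the immune list had 58.5 and 114 in cKO, against 267 and 195 in het, while Ptprc did not exceed 35.7. The part of these cells in the integrin values was not tested.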

How the data were processed

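Per the labels' protocols, the 4 samples (2 cKO, 2 het) gave total RNA by Trizol, labelled by 3' IVT with biotin. The deposited intensity values are linear, 1 per probe set and array, and come from MAS5 (version not given in the sources used here), per the submitters' processing notes. The trimmed mean, at 2% per end, was 500.0 on each array, so absolute shifts cannot be seen.

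Of 45101 probe sets, 64 controls were not tested. The platform annotation gave the names, brought up to date by Entrez identifier (34741 of the 34945 probe sets with 1 symbol matched); 932 had several symbols and 9160 none. No genome build was used for the arrays. Fits were made with limma 3.58.1 in R 4.3.3 (lmFit, eBayes with a variance trend) on log2(signal + 1), and the pipeline was tested on simulated data. Figures were drawn with matplotlib 3.10.9. Precision is limited by the number of arrays.

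The members, lists and tests were chosen with earlier results of these data known. Named were all members, and of each fixed list up to 4 genes that passed or, with none, the 2 with the largest difference of 1 sign within both pairs. Alternatives covered the block, variance prior, scaling, pseudocount, filter, probe set and each array left out. For Tyr, Dct, Cdh5, Ramp2, Actc1 and Krt15, named by the rule, 0 passed with the block.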

Additional observations from a re-analysis of the deposited data

How the results depend on the processing

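Without a block, 0 members passed under the scaling, pseudocount, filter and variance alternatives and with 1 array left out. With the title number as a replicate block 97 genes and 1 member (Npnt) passed; with the block and median centring 85 and 1, with the block and quantile normalization 151 and 1, with the block and a robust prior 50 and 0, and with the block and no variance trend 0 and 0. Leaving out 1 array gave 0 to 2 genes and 0 members. Deviations of same-numbered arrays from their group means correlated at 0.755 over the tested probe sets, but this does not show that the 2 numbers pair animals, and with 1 array left out the block leaves no residual degree of freedom. The count of members with 1 sign within both numbers was 6, against 8 with median centring and 7 with quantile normalization. The blocked fits with a pseudocount of 32 and with no filter were added after seeing the data.

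With 1 array left out, the difference of Itgb1 ranged from -0.26 to 0.76, that of Itgav from -0.056 to 0.77 and that of Itgb5 from -0.34 to 0.22, none passing, where 1 pair was incomplete. Npnt ranged from 0.45 to 1.17, Fn1 from -0.62 to -0.31 and Itga3 from 0.10 to 0.41. Other probe sets had the opposite sign to the brightest one for Itgb1 (-0.028 and -0.89), Itga9 (-0.83 and -0.49), Itgav (-3.22 and -0.43), Itga5 (0.48) and Npnt (-0.041); except for that of Npnt these lay below the filter. The cause was not tested.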
